A study of Mus musculus with 6 samples.

Results

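Transcripts of the MHC class II antigen-presentation pathway and of B lymphocytes were examined in splenic NK cells with and without Mettl3, the catalytic subunit of the m6A methyltransferase. The genes were chosen by name, 4 of class II (Cd74, H2-Aa, H2-Ab1 and H2-Eb1) and 5 of B cells (Cd79a, Cd79b, Ighm, Ms4a1 and Ebf1), and all 9 were among the 14490 genes with values. The WT samples came from Mettl3fl/fl mice, and the cKO samples from Ncr1Cre-Mettl3fl/fl mice, with 3 samples of each. All carried floxed Mettl3 alleles on the C57BL/6 strain, so the groups differ in Cre, which is expressed from Ncr1, the gene of NKp46, and deletes Mettl3 in cells that express NKp46. For RNA-seq the splenic NK cells were purified by flow cytometry. The general purification protocol for both genotypes selected NKp46+ splenocytes with an antibody and magnetic beads, with flow sorting added where purity was low, and the age of these animals is given only as a range of weeks that covers all the mice used. Whether a sample came from a single animal is not stated, so the spread between samples may be partly technical.

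The values were counts divided by a size factor per sample, here called normalized counts. The reads on listed genes ranged from 55965515 to 67732352 in WT and from 62995813 to 71464042 in cKO. Mettl3 had between 1192 and 1303 normalized counts in WT and between 297 and 405 in cKO. NK identity was checked with Ncr1, Klrb1c (NK1.1) and Eomes, of which Ncr1 was the lowest, with 16678 normalized counts in cKO sample 3. In the fit of all genes with limma (two-sided, Benjamini-Hochberg adjustment over all genes), 5307 genes differed between cKO and WT at an adjusted p under 0.05, which is 36.6% of those tested, with 17.8% higher and 18.8% lower in cKO.

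MHC class II molecules carry peptides of endocytosed proteins to the surface of B cells, dendritic cells and macrophages, where CD4+ T cells read them. H2-Aa and H2-Ab1 encode the alpha and beta chains of I-A, and H2-Eb1 encodes the beta chain of I-E. CD74, the invariant chain, fills their groove until it is degraded in the endosome. In B cells the antigen receptor is a membrane immunoglobulin, whose mu heavy chain comes from Ighm, joined to the signalling chains CD79A and CD79B. Ms4a1 encodes the surface protein CD20, and Ebf1 a transcription factor that commits progenitors to the B lineage. NK cells are lymphocytes that kill without an antigen receptor, and spleen is rich in B cells and in class II-bearing phagocytes.

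Deletion of Mettl3 went with a higher level of 3 of the 9 transcripts, all from the B-cell group, while no class II transcript passed the test. Cd79a was 1.65-fold and Ms4a1 1.58-fold higher in cKO, and Ighm was 1.10-fold higher. Cd79b, the partner of Cd79a, had nearly the same mean in both genotypes. The 3 calls are 33.3% of the 9 genes, close to the 36.6% of all genes, and all genes called higher made up 17.8% of the table. The median log2 fold change was 0.07 over the 9 genes and 0.00 over all genes. In 4 of the 9 (Cd74, Cd79a, Ighm and Ms4a1) the WT and cKO values did not overlap, compared with 45.7% of all genes.

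**Figure D1:**
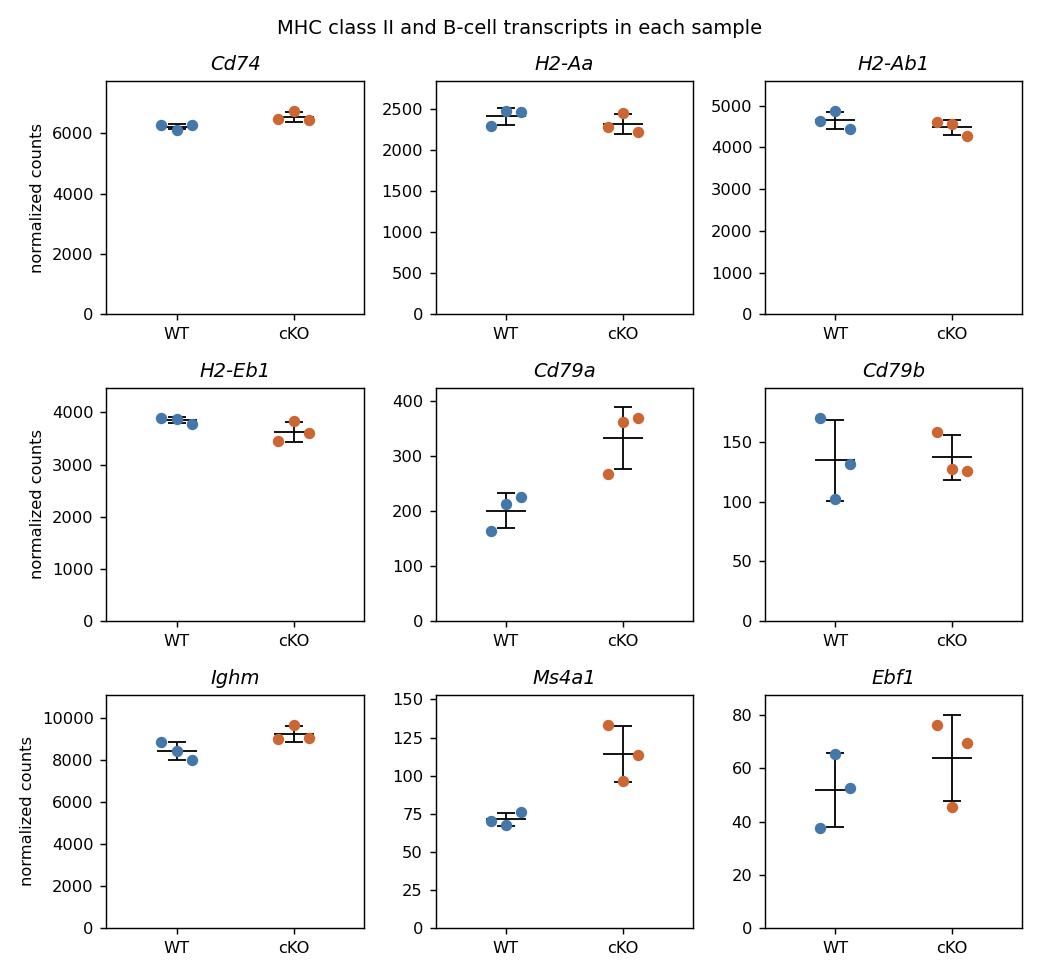
Normalized counts (vertical axes, from 0) of the 9 genes in each of the 3 WT (blue) and 3 cKO (orange) samples, with the mean and SD of each genotype in black. Cd79a and Ms4a1 separate clearly by genotype, Ighm and Cd74 narrowly, and the 2 groups overlap in the other genes.

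Levels can be compared between genes only per length. Divided by the length of all annotated exons, Ighm was the highest of the 9 in WT with 4468 ± 234 normalized counts per kilobase (SD, n = 3), and Cd74 followed with 3705 ± 52.4 (SD, n = 3). H2-Eb1 had 1978 ± 29.5 and H2-Ab1 1812 ± 80.0 normalized counts per kilobase (SD, n = 3). The values of these 2 genes did not overlap in WT and did overlap in cKO, where H2-Eb1 ranged from 1776 to 1968 and H2-Ab1 from 1667 to 1798 per kilobase. H2-Aa stood lower, at 634 ± 26.6 per kilobase (SD, n = 3), with an exon length of 3798 bases that includes all its isoforms. The B-cell transcripts other than Ighm were much scarcer. Cd79a had 138 ± 22.2 and Cd79b 94.1 ± 23.6 normalized counts per kilobase in WT (SD, n = 3), and these 2 overlapped. Ms4a1 had 11.6 ± 0.685 and Ebf1 5.33 ± 1.42 per kilobase (SD, n = 3). Their exon lengths of 6187 and 9756 bases also include all annotated isoforms, so these levels depend on the length used. The order of the means per kilobase was the same in cKO.

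H2-Aa (chromosome 17 of GRCm38, 34282744 to 34287823, minus strand), H2-Ab1 (34257689 to 34269419, plus strand) and H2-Eb1 (34305867 to 34316674, plus strand) lie side by side in the MHC. Class II promoters hold an X box, which the RFX complex binds, and a Y box, which NF-Y binds. The bases just upstream of the annotated start of H2-Aa and H2-Eb1 are given here to show that shared element, and those of Cd79a because it was the gene with the largest change. The sequences are from RefSeq (GRCm38.p6), each written from 5′ to 3′ on the strand of its gene and ending at the last base before the GENCODE start of the gene. RefSeq places the start of H2-Aa and H2-Eb1 at the same base and that of Cd79a further downstream, at 24897497. Capitals mark CTGATTGG, the core of the Y box, and, in H2-Aa alone, also TGACGTCA, a cyclic AMP response element. 
H2-Aa, chr17:34287824-34287943, minus strand: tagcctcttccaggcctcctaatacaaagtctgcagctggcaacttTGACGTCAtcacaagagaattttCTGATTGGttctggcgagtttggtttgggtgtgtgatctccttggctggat
H2-Eb1, chr17:34305747-34305866, plus strand: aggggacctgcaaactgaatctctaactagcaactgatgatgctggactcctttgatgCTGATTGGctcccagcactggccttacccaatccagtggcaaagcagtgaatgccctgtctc
Cd79a, chr7:24897261-24897380, plus strand: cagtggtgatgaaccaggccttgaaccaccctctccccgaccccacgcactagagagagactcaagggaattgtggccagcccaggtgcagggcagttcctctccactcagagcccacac
On both strands, CTGATTGG was found in 3.83% of the 32851 windows of 250 bases upstream of a RefSeq start and TGACGTCA in 1.55%. Of the 9 genes, H2-Aa, H2-Eb1, Cd79a and Ebf1 have such a window, and the last 2 hold neither motif. For Cd79a the window is counted from its RefSeq start, so it also takes in bases downstream of the stretch printed here. These matches describe letters only.

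The class II transcripts were abundant and steady. For Cd74, the WT samples gave 6272, 6120 and 6272 normalized counts, in order of their number, and the cKO samples 6475, 6728 and 6442. All cKO samples were above all WT samples, by a small margin. The log2 fold change was 0.07, with a standard error of 0.0358 (adjusted p = 0.113 by limma). When every sample was scaled to the same total, its log2 fold change went from 0.07 to 0.12 and the adjusted p to 0.00586, and over all alternatives the adjusted p ran from 0.00586 to 0.32.

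H2-Aa had 2292, 2470 and 2464 normalized counts in WT and 2276, 2449 and 2221 in cKO. H2-Ab1 had 4641, 4863 and 4453 in WT and 4618, 4566 and 4281 in cKO. H2-Eb1 had 3887, 3869 and 3780 in WT and 3452, 3826 and 3606 in cKO. The 2 genotypes overlapped in each of these chains, although the cKO mean was lower for each of the 3. The log2 fold change was −0.06 (95% interval −0.16 to 0.05, adjusted p = 0.41 by limma) for H2-Aa, −0.05 (−0.14 to 0.04, adjusted p = 0.371 by limma) for H2-Ab1 and −0.09 (−0.17 to 0.00, adjusted p = 0.13 by limma) for H2-Eb1. Without cKO sample 2, H2-Eb1 passed the test, with a log2 fold change of −0.12 and an adjusted p of 0.0376. The summed level of Cd74 and the 3 chains was 17127 ± 179 normalized counts in WT and 16980 ± 528 in cKO (SD, n = 3). H2-Eb1 overlaps the annotated gene Gm20513 and Cd74 overlaps Mir5107, and how the counting treated strand and overlapping genes is not given in the sources used here.

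Within the class II reads, the shares of Cd74 and H2-Eb1 differed slightly between genotypes. The shares were not tested, and how often such ranges separate for other genes was not measured. They add up to the whole, so a higher share of one gene lowers the others. Cd74 took between 35.3% and 37.0% of the reads of the 4 transcripts in WT and between 38.3% and 38.9% in cKO. H2-Eb1 took between 22.3% and 22.7% in WT and between 20.5% and 21.8% in cKO. These ranges did not overlap, while those of H2-Aa (13.4% to 14.5% in WT, 13.4% to 13.9% in cKO) and H2-Ab1 (26.2% to 28.1% in WT, 25.9% to 27.5% in cKO) did. With 2076 to 7404 reads per gene and sample, the exact binomial intervals of these shares were narrow, as the plot of shares shows. They cover counting error only. For H2-Eb1 the intervals of WT sample 2 (21.7% to 23.0%) and cKO sample 2 (21.2% to 22.4%) overlapped.

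The B-cell receptor transcripts gave a different picture. Cd79a (chromosome 7, 24897381 to 24902197, plus strand) rose from 165, 213 and 226 normalized counts in the WT samples, given in order of their number, to 268, 363 and 369 in those of cKO. Every cKO sample lay above every WT sample, and WT sample 1 was the lowest. Its log2 fold change was 0.72 (standard error 0.147, adjusted p = 0.000293 by limma), and the exact permutation test over samples gave p = 0.1, the smallest that 3 against 3 samples allow. It kept its call in each alternative, with adjusted p-values from 4.18e-05 to 0.00382. Cd79b (chromosome 11, 106311341 to 106314762, minus strand), whose product pairs with that of Cd79a in the receptor, gave 170, 102 and 132 in the WT samples and 159, 127 and 125 in cKO. The genotypes overlapped throughout. Its log2 fold change was 0.05, with a 95% interval of −0.35 to 0.44 (adjusted p = 0.877 by limma), and it changed sign without WT sample 2 or without cKO sample 1.

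Ighm (chromosome 12, 113418558 to 113422730, minus strand) rose from 8858, 8444 and 7976 normalized counts to 9002, 9663 and 9039 in cKO. The cKO samples all stood above the WT samples, the lowest of them by a narrow margin. The log2 fold change was 0.13 (standard error 0.0391, adjusted p = 0.00862 by limma). The call was lost without WT sample 3 (adjusted p = 0.0793) and without cKO sample 2 (adjusted p = 0.0662), and the adjusted p over all alternatives lay between 0.000411 and 0.0793. Ighm made up most of the reads of the B-cell group, 94.2% to 95.2% in WT and 93.0% to 93.9% in cKO.

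Ms4a1 (chromosome 19, 11249675 to 11266241, minus strand) rose from 70.5, 67.8 and 76.1 normalized counts to 133, 96.3 and 113 in cKO. The groups were apart, and cKO sample 1 was the highest. The log2 fold change was 0.66 (standard error 0.213, adjusted p = 0.0162 by limma). Without cKO sample 1 it was 0.54, with an adjusted p of 0.0998, and the adjusted p otherwise reached down to 0.0105 over the alternatives. Ebf1 (chromosome 11, 44617317 to 45008091, plus strand) had 37.7, 65.4 and 52.7 normalized counts in WT and 76.3, 45.4 and 69.5 in cKO. These overlapped, with WT sample 1 the lowest and cKO sample 1 the highest, and its log2 fold change was 0.29 (95% interval −0.30 to 0.88, adjusted p = 0.466 by limma). With 38 to 76 reads in a sample, a change of the size seen for Cd79a lies inside that interval for Ebf1. Ms4a1 overlaps the annotated gene 4930526L06Rik and Ebf1 overlaps Gm12158.

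The samples were then compared with the WT mean of each gene, to see whether the 9 transcripts rose in the same proportion. They did not move by one factor in any cKO sample. How much of each gene's WT level came from which cells was not measured, so the part of a shared cell source was not tested by this comparison. In cKO sample 1 the values ran from 0.898 times the WT mean for H2-Eb1 to 1.86 times for Ms4a1. In cKO sample 2 they ran from 0.875 times for Ebf1 to 1.80 times for Cd79a, and in cKO sample 3 from 0.920 times for H2-Ab1 to 1.83 times for Cd79a. Ms4a1 stood above Cd79a in cKO sample 1 (1.86 and 1.33 times) and below it in cKO sample 2 (1.35 and 1.80 times) and cKO sample 3 (1.59 and 1.83 times).

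**Figure D2:**
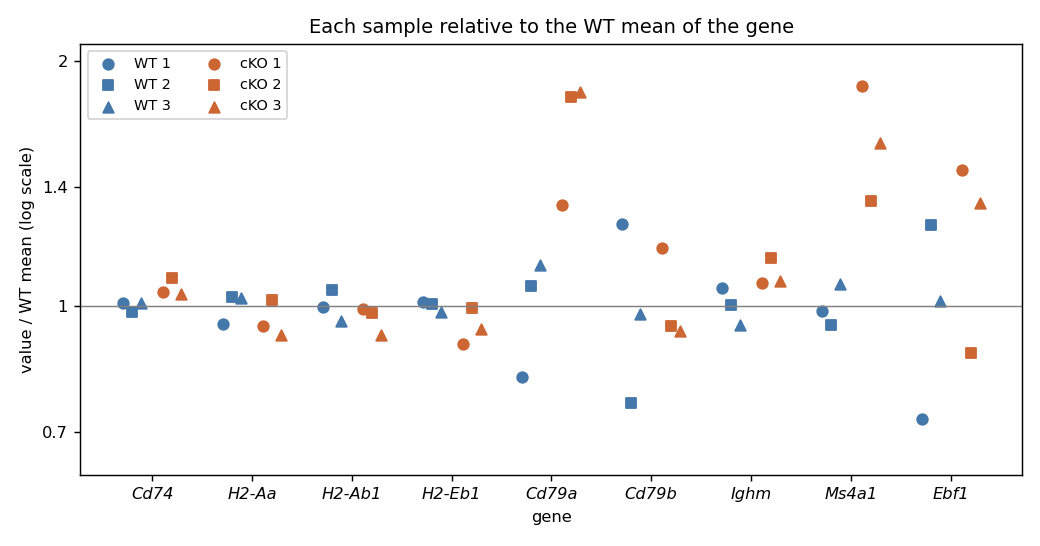
Each sample's normalized counts divided by the WT mean of the gene (vertical log axis) for the 9 genes, with colour for genotype and marker shape for sample number. The class II transcripts stay between 0.898 and 1.08 in cKO, Cd79a and Ms4a1 lie between 1.33 and 1.86, and Cd79b and Ebf1 scatter on both sides of 1.

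The change of each gene relative to Cd79a was fitted with limma on log2 ratios. Cd79a had the largest rise of these genes. In the fit of all samples, a negative change of the others relative to it was therefore fixed by that choice. Relative to Cd79a, 6 of the other 8 transcripts were lower in cKO at an adjusted p under 0.05, as were 70.9% of all genes (71.1% of all genes differed in either direction), so the count is near that of genes at large. Cd74 had a change of −0.65 relative to Cd79a (95% interval −0.96 to −0.34, from the summed variances of both genes, a method chosen after seeing the data, adjusted p = 0.0132 by limma), and the 3 chains had −0.81 to −0.78. Ighm had −0.59 (−0.90 to −0.28, adjusted p = 0.0228 by limma) and Cd79b −0.68 (−1.18 to −0.18, adjusted p = 0.0298 by limma). For Cd79b the log2 ratios overlapped between genotypes, running from −1.05 to 0.04 in WT and from −1.55 to −0.76 in cKO. Ms4a1 was the closest to Cd79a, with −0.07 and an interval of −0.60 to 0.47 (adjusted p = 0.851 by limma), and Ebf1 had −0.43 (−1.10 to 0.23, adjusted p = 0.263 by limma). The spread of Cd79a enters every ratio, yet the fit took the genes as independent and so had 57956 degrees of freedom from 6 samples. These p-values are therefore too small, and the calls rest on them. The intervals from summed variances are narrower still than the ratio fit gives, and overstate the certainty. For Cd74 the summed standard error was 0.151, against 0.241 in the ratio fit. Of the 6 calls, that of H2-Eb1 was the one kept with each sample left out, and those of the other 5 were each lost without cKO sample 2 and without cKO sample 3. The calls of Cd74, Cd79b and Ighm were also lost without WT sample 1, and that of Ighm without WT sample 2.

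**Figure D3:**
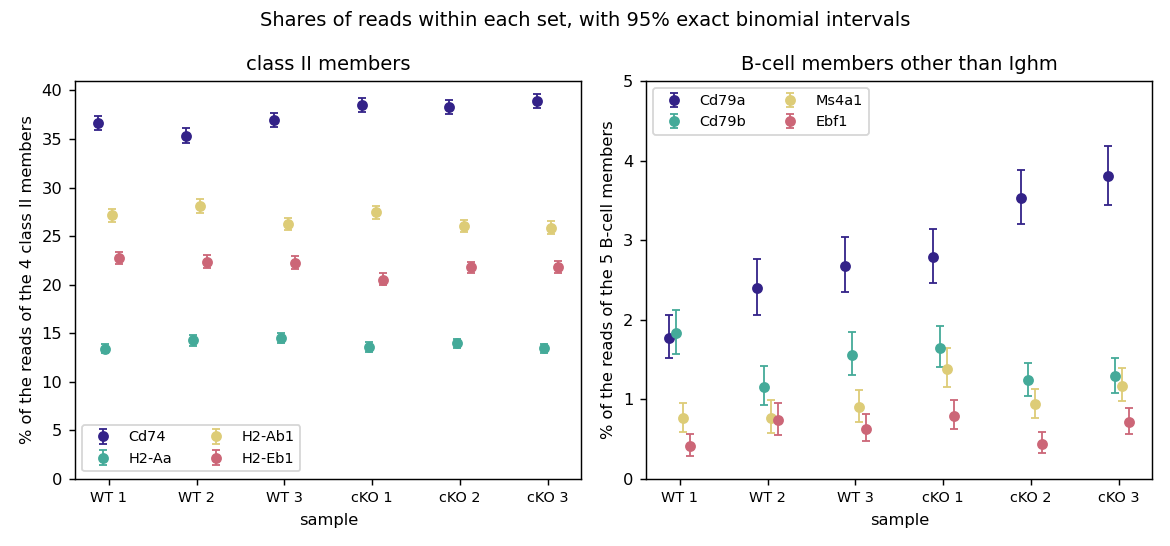
Share of each gene in the reads of its set (vertical axis, percent) in the 6 samples, with exact binomial 95% intervals, for the class II set (left) and for the B-cell set, Ighm not drawn (right). Class II shares stay within narrow bands, with Cd74 slightly higher in cKO, while the share of Cd79a spans 1.77% to 3.80% and crosses that of Cd79b in WT sample 1 alone.

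The ratio of class II to B-cell normalized counts lay between 1.84 and 2.01 in WT and between 1.70 and 1.75 in cKO, without overlap. Because Ighm held most of the B-cell reads, this ratio is mainly one of class II to Ighm. Ighm had 16.3 to 20.3 times the counts of Igkc in WT and 18.3 to 20.9 times in cKO, not divided by length. Class II transcripts took 64.8%, 66.1% and 66.7% of the reads of the 9 genes in WT and 63.6%, 63.1% and 63.0% in cKO. Each of these shares had an exact binomial 95% interval less than 2 percentage points wide. These intervals cover counting error only. Those of WT samples 1 and 3 did not overlap (64.2% to 65.3% and 66.1% to 67.3%), while those of the cKO samples did. When Ighm was left out of the sum, the ratio went from between 34.8 and 38.6 in WT to between 24.4 and 27.8 in cKO. In that sum Cd79a, the gene with the largest rise, held the most reads in every cKO sample.

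The wider B-cell list held other genes of the receptor, its co-receptors and the lineage factors, and 32 of its 34 genes had values. Of these 13 (40.6%) passed the test, 12 higher and 1 lower in cKO, next to 36.6% of all genes. The median log2 fold change was 0.38 in the list and 0.00 over all genes. Pax5, which maintains B-cell identity, had 104, 137 and 114 in WT and 208, 146 and 176 in cKO, a log2 fold change of 0.57 (adjusted p = 0.0139 by limma). Its genotypes did not overlap. Cr2, the complement receptor CD21, rose by a log2 fold change of 0.81 and Fcer2a, the low-affinity IgE receptor CD23, by 0.85. Blk, a Src-family kinase of the receptor, rose by 0.87, its adaptor Blnk by 0.59, and the lineage factor Spib by 0.65. Other rises were those of Ralgps2 (0.67), Tnfrsf13c, the BAFF receptor (0.52), Ighd, the delta heavy chain (0.51), Cd22, an inhibitory co-receptor (0.27), and Fcgr2b, the inhibitory Fc receptor (0.39).

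The 4 most abundant genes of the list were Cd72, Fcgr2b, Cd22 and Igkc, and they did not move together. Cd72, an inhibitory receptor, fell from 7277, 6847 and 6757 normalized counts in WT to 5719, 6162 and 5603 in cKO, a log2 fold change of −0.26 (adjusted p = 1.33e-05 by limma). Fcgr2b rose from 4766, 5005 and 5052 to 6562, 6632 and 6217 (adjusted p = 9.28e-09 by limma). Igkc, the kappa light chain that most mouse B cells carry, had 436, 518 and 448 in WT and 439, 463 and 494 in cKO, with a log2 fold change of −0.00 and a 95% interval of −0.21 to 0.20 (adjusted p = 0.983 by limma). Igkc and Bank1 (log2 fold change −0.22, adjusted p = 0.261 by limma) did not pass the test. The list summed to between 15376 and 15616 normalized counts in WT and between 16243 and 17425 in cKO. Its 30 genes other than Cd72 and Fcgr2b, a choice made after the values were seen, summed to 3617 ± 81.3 in WT and 4494 ± 119 in cKO (SD, n = 3), 1.24-fold. Pax5 was above 0 in every sample. The part of B cells in the levels of the 9 genes was not tested, and in sorted bulk samples more cells of a type and more RNA per cell cannot be told apart. Without cKO sample 1 the number of calls in the list was 8, with 7 higher and 1 lower.

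**Figure D4:**
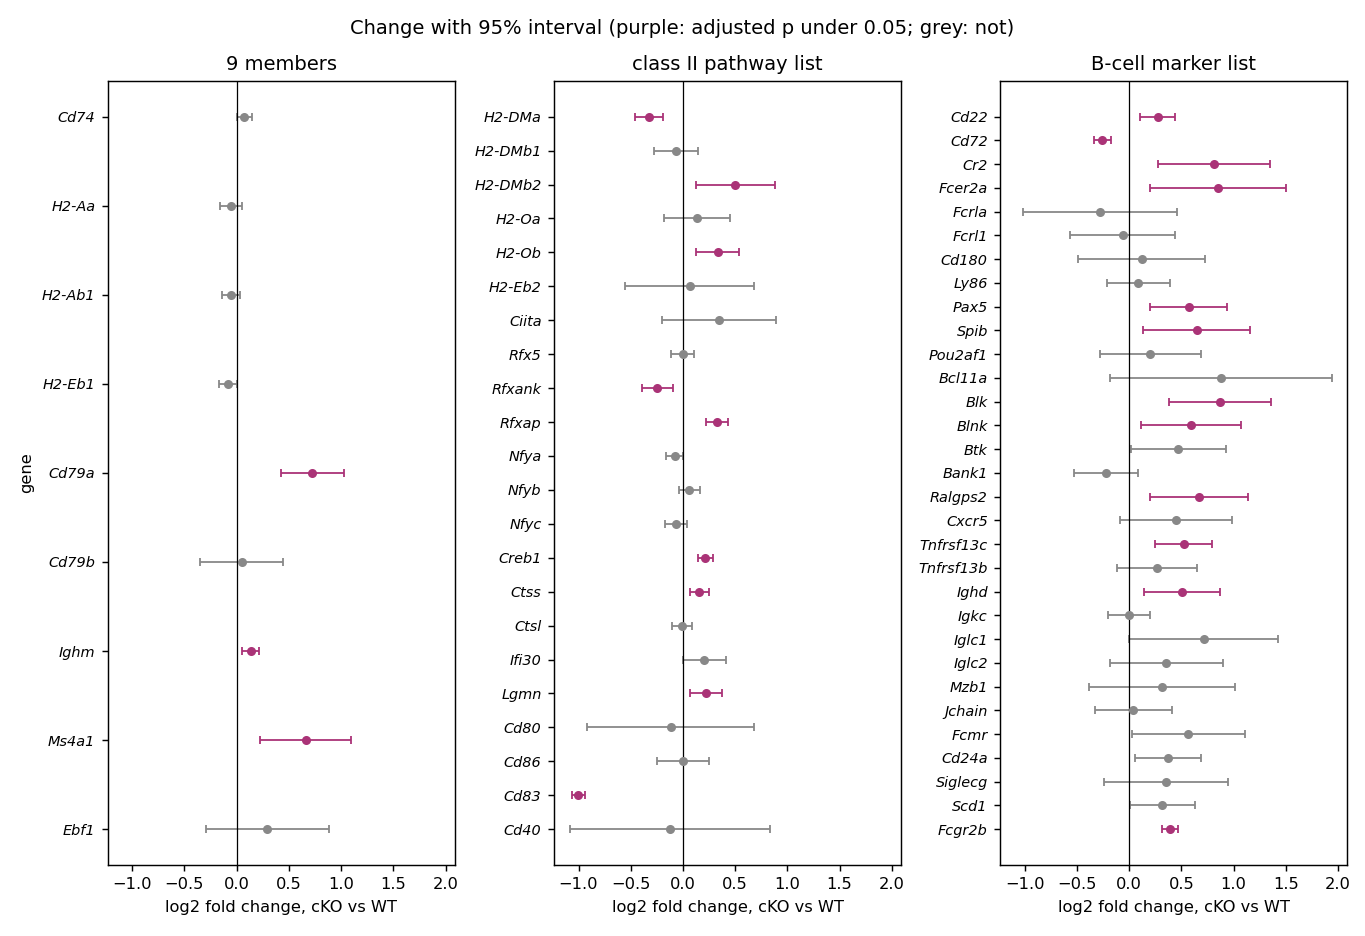
Log2 fold change of cKO against WT (horizontal axis) with its 95% interval for the 9 genes, the 22 class II pathway genes and genes of the B-cell list, in purple where the adjusted p was under 0.05. Most B-cell genes lie to the right of 0, with Cd72 to the left, while the class II pathway genes fall on both sides and Cd83 stands apart at the far left.

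The class II pathway beyond the 4 members moved in both directions. All 22 genes of this list had values, and 9 (40.9%) passed the test, 6 higher and 3 lower, next to 36.6% of all genes. The median log2 fold change was 0.03. Among the peptide-loading chaperones, H2-DMa, the alpha chain of H2-M, fell from 1280, 1391 and 1205 normalized counts in WT to 1036, 1022 and 1026 in cKO, a log2 fold change of −0.33 (adjusted p = 0.000218 by limma). Its genotypes did not overlap. The beta chain genes differed from it and from each other, since H2-DMb2 rose by a log2 fold change of 0.50 (adjusted p = 0.0343 by limma) and H2-DMb1 had −0.07 (adjusted p = 0.637 by limma). H2-Ob, the beta chain of H2-O, which restrains H2-M in B cells, rose by 0.33 (adjusted p = 0.00969 by limma), and H2-Oa had 0.14 (adjusted p = 0.527 by limma).

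Ciita, the coactivator that switches class II genes on, had 46.7, 75.0 and 99.5 normalized counts in WT and 121, 78.2 and 75.9 in cKO. These overlapped, and the log2 fold change was 0.34 with a 95% interval of −0.20 to 0.89 (adjusted p = 0.339 by limma). The factors that bind the X box moved apart. Rfxap rose by a log2 fold change of 0.33 (adjusted p = 9.43e-06 by limma), Rfxank fell by 0.25 (adjusted p = 0.00838 by limma), and Rfx5 had −0.00 (adjusted p = 0.97 by limma). Of the NF-Y subunits, which bind the Y box printed above, Nfya, Nfyb and Nfyc had log2 fold changes of −0.08, 0.06 and −0.07 and did not pass the test. Creb1, a factor of the cyclic AMP response element, rose by 0.21 (adjusted p = 2.35e-05 by limma). Of the endosomal proteases, Ctss, which trims the invariant chain, rose by 0.16 (adjusted p = 0.00625 by limma) and Lgmn by 0.22 (adjusted p = 0.0186 by limma), and Ctsl had −0.01 (adjusted p = 0.871 by limma).

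Cd83, whose product stabilises class II at the cell surface, showed by far the largest change in the pathway. It had 20801, 20978 and 20602 normalized counts in WT and 10681, 10409 and 10072 in cKO. The cKO mean was 0.499 times the WT mean on the fitted scale (adjusted p = 2.66e-18 by limma), and no sample of one genotype came near the other. The costimulatory genes Cd86 (log2 fold change −0.00), Cd80 (−0.12) and Cd40 (−0.13) did not pass the test, Cd80 and Cd40 at under 40 normalized counts in every sample.

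Markers of the other cells that carry class II were also read. Of the monocyte and macrophage list, 13 of 15 genes had values and 8 passed the test (61.5%, next to 36.6% of all genes), 3 higher and 5 lower. The list summed to between 113981 and 116696 normalized counts in WT and between 103691 and 107175 in cKO. Its most abundant genes, Itgam and Fcer1g, are also expressed by NK cells. Csf1r, the macrophage growth factor receptor, had between 2871 and 3131 normalized counts in WT and between 3062 and 3416 in cKO (log2 fold change 0.10, adjusted p = 0.115 by limma). Adgre1, the gene of F4/80, rose by 0.25 and Cd68 by 0.20, and Mpeg1 by 0.15. Lyz2 fell by 0.40, Ly6c2 by 1.34, Fcer1g by 0.27, Cst3 by 0.14 and C1qb by 0.13 on the log2 scale. C1qa and C1qc, the other chains of the complement component, had −0.00 and 0.03.

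Of the dendritic cell list, 6 of 10 genes had values and 6 passed the test (100%, next to 36.6% of all genes), 3 higher and 3 lower. The list summed to between 193093 and 198539 normalized counts in WT and between 180995 and 184746 in cKO. Most of this sum was Irf8, with a mean of 148853 normalized counts in WT and 135303 in cKO, so the sum mainly follows that gene. Zbtb46 fell by 0.66 on the log2 scale (adjusted p = 1.32e-12 by limma), Irf8 by 0.14 and Bst2 by 0.19. Itgax, which NK cells also express, rose by 0.08 and Batf3 by 0.50. Xcr1, a receptor of cross-presenting dendritic cells, rose by 1.42 (adjusted p = 0.0321 by limma) at few counts, 17.9, 11.9 and 3.90 in WT and 22.4, 35.4 and 25.6 in cKO. Flt3, Clec9a, Siglech and Cd209a had no values under these names, so the count above leaves them out. No gene with values in either list was at 0 in any sample. How much of these levels, Irf8 and Ly6c2 included, came from dendritic cells, monocytes or macrophages was not tested. Nor was the part of these cells in the class II levels.

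Of the T-cell list, 15 of 17 genes had values and 6 passed the test (40%, next to 36.6% of all genes). Cd247 (log2 fold change 0.21) and Lef1 (0.14) rose, and Cd3g (−0.75), Cd6 (−0.84), Cd28 (−0.59) and Trbc2 (−0.33) fell. Tcf7, Trbc1 and Cd28 were the most abundant, with Cd247 the next. Together these genes held most of the sum of the list, and the part of T cells in their levels was not tested. Cd3e and Cd4 had at most 189 and 98.3 normalized counts in any sample and log2 fold changes of 0.15 and −0.15. The list summed to between 60281 and 63165 normalized counts in WT and between 56907 and 58820 in cKO. Of the erythroid list, 6 of 8 genes had values and 0 passed the limma test, next to 36.6% of all genes. At an unadjusted p under 0.05 there was 1, next to 44.2% of all genes. The list had sums of 823 to 888 in WT and 707 to 840 in cKO. Hbb-bs, Hba-a1, Hbb-bt and Hba-a2 were its most abundant genes.

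Of the NK list, 13 of 14 genes had values and 8 passed the test (61.5%, next to 36.6% of all genes). Tbx21 (log2 fold change 0.23) and Il2rb (0.14) rose, and Ncr1 (−0.40), Nkg7 (−0.34), Klrb1c (−0.27), Klrk1 (−0.19), Prf1 (−0.18) and Gzma (−0.11) fell. Gzmb, also among the most abundant, had 0.03 (adjusted p = 0.506 by limma). Ncr1 is the locus that carries Cre in the cKO mice. The list summed to between 989638 and 1024349 normalized counts in WT and between 944477 and 988468 in cKO.

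The genes whose pattern was most like that of the B-cell group, by Pearson correlation of log2 values over the 6 samples with the group's mean log2 value, were Ddx51 (r = 0.997), Zfp553 (0.996), Ppargc1a (0.995), Trp53i13 (0.994) and Gm38342 (0.994), out of 11048 genes with a mean of at least 100. Each of these rose in cKO, by log2 fold changes of 0.21, 0.38, 0.87, 0.41 and 0.40. The mean log2 value of the B-cell group was itself higher in cKO, so a rise was largely fixed by this choice. For the class II group they were Tasp1 (r = 0.990), Cct2 (0.984), Paqr7 (0.981), Gtf2a1 (0.978) and Sirt5 (0.975), with log2 fold changes between −0.15 and −0.04, none past the test. None of the 10 genes stood in the lists above. The points are 6 libraries that share their size factors and 2 genotypes, and the correlations are given as a description.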

How the data were processed

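Poly(A) RNA of splenic NK cells was sequenced from 3 WT and 3 cKO samples. The authors aligned the reads to GRCm38 with HISAT2 2.0.5, counted them per gene with featureCounts 1.5.0-p3 and divided the counts by DESeq2 1.16.1 size factors, with versions per the submitters' processing notes. The sample columns the authors deposited hold this signal, here called normalized counts, and a further column holds its mean. The authors also deposited the log2 fold change with its standard error, a Wald score, and the p-value and adjusted p-value of their comparison, and none of these was used. Every gene in the table has an adjusted p-value of the authors.

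After a filter of at least 1 normalized count in 3 samples, which all 14490 genes passed, limma 3.58.1 in R 4.3.3 fitted genotype to log2(value + 1) with a variance trend. The added 1 brings low values closer together. Dividing each sample by its step gave whole numbers for 100% of values (tolerance 0.01), which were taken as reads. Differences in counts between samples of a genotype exceeded counting noise (chi-square at least 5.50 times its degrees of freedom). Exon lengths and positions are from GENCODE M21 (GRCm38), which held 97.3% of the gene names. Same-numbered samples were checked for pairing. The alternatives were another pseudocount, filter, scaling or tool, a replicate block and leaving out each sample, and the steps were tested on simulated data. The genes and lists were chosen with earlier results of these data known. Named genes are the 9, Mettl3, the 4 most abundant and all called genes of each list, and the 5 most alike per group. Others were chosen after their values were seen. 1 gene of the B-cell list is counted in it but not reported here by itself.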

Additional observations from a re-analysis of the deposited data

How the results depend on the processing

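Between 5261 and 5543 genes passed the test under the other settings, and between 4417 and 4922 with a sample left out. Scaling to equal totals moved the division of all calls from 2576 higher and 2731 lower to 3487 and 2016. Under that scaling Cd74 passed, with a log2 fold change of 0.12, so 4 of the 9 genes did. With a sample left out, the number of the 9 genes called lay between 2 and 3, that of the class II pathway list between 7 and 9, and that of the B-cell list between 8 and 13. Leaving out each sample gave log2 fold changes of 0.05 to 0.09 for Cd74, −0.10 to −0.03 for H2-Aa, −0.08 to −0.02 for H2-Ab1, −0.12 to −0.050 for H2-Eb1, 0.59 to 0.87 for Cd79a, −0.13 to 0.23 for Cd79b, 0.094 to 0.17 for Ighm, 0.54 to 0.78 for Ms4a1 and 0.08 to 0.51 for Ebf1. Cd79b changed sign without WT sample 2 (−0.13) and without cKO sample 1 (−0.06). Relative to Cd79a, the same fits gave −0.79 to −0.51 for Cd74, −0.92 to −0.67 for H2-Aa, −0.95 to −0.64 for H2-Ab1, −0.92 to −0.66 for H2-Eb1, −0.94 to −0.36 for Cd79b, −0.72 to −0.42 for Ighm, −0.73 to −0.14 for Ebf1 and −0.33 to 0.12 for Ms4a1, whose sign changed without WT sample 1 (0.06), cKO sample 2 (0.12) or cKO sample 3 (0.01). The log2 ratio of class II to B-cell reads, −0.17 in cKO minus WT, was −0.51 without Ighm in the sum and lay between −0.20 and −0.14 with a sample left out. For the values that moved the cause was not tested.

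Same-numbered samples did not deviate together (correlations −0.04, 0.06 and 0.04), so the numbers were not taken as pairs. WT sample 1 correlated best with cKO sample 3 (0.04), and samples 2 and 3 with their own numbers. With the replicate block, 5543 genes passed, and 3 of the 9, 9 of the class II list and 13 of the B-cell list, as without it. Ebf1 has no value under the filter of 1 CPM. The planned count tests on whole reads were not run. Few reads limit Ebf1, Ms4a1 and Cd79b most.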

Other observations

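Immunoglobulin genes beyond the B-cell list were read after the values were seen. Of the 21 with values, Ighm and the light chains included, 6 passed the limma test (28.6%, next to 36.6% of all genes), 4 higher and 2 lower in cKO, with a median log2 fold change of 0.13. Igkv4-68, a kappa variable segment, had 0.993, 8.33 and 0 normalized counts in WT and 45.8, 21.8 and 23.8 in cKO (log2 fold change 3.49). Igkv5-39 rose by 0.82 on that scale. Igha, the heavy chain of IgA, fell from 55.6, 104 and 72.2 normalized counts to 32.5, 45.4 and 19.2 (log2 fold change −1.26), without overlap between genotypes. Igkv14-111 had 70.5, 60.7 and 68.3 in WT and 38.6, 46.3 and 24.7 in cKO, also without overlap. Variable segments resemble each other, so how reads were divided among them is uncertain.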
